A study of Mus musculus with 8 samples.

Results

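The endoplasmic reticulum (ER) chaperone and folding genes Hspa5, Hsp90b1, Calr, Pdia4, Pdia6, Dnajb9, Dnajc3, Sdf2l1, Herpud1 and Xbp1 were followed in whole mouse liver after bile duct ligation, an operation in which the bile duct is tied off so that bile backs up into the liver. They were chosen by gene name, and each name was found once in every library, so they make up 10 of the 53816 gene IDs listed. RNA was sequenced from 8 livers, and all 8 mice had undergone the ligation; livers without it were not analysed here. The 4 control mice were wild type. The 4 others carried the genotype LSEC Myc overexpression, where Myc is the growth-promoting transcription factor and the label places its overexpression in the liver endothelium. The sources used here do not give the promoter or Cre line behind the overexpression, the time after surgery, age or sex. The question put to these genes was whether their level differed between the genotypes, and whether they moved together from liver to liver.

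The ER is where secreted and membrane proteins are folded, and the hepatocyte, which exports albumin and most other plasma proteins, is among the most active secretory cells of the body. Hspa5 (BiP) is an Hsp70 chaperone that binds unfolded chains with the help of J-domain cochaperones, Hsp90b1 (GRP94) is the ER Hsp90, Calr binds glycoproteins and calcium, and Pdia4 and Pdia6 make and rearrange disulfide bonds. When unfolded protein builds up, the sensors IRE1, PERK and ATF6 start the unfolded protein response, in which spliced XBP1 and cleaved ATF6 raise chaperone and degradation genes through ER stress elements in their promoters.

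The ER stress elements of the members are shown here as a description of their promoters. Such elements are already known from chaperone and degradation genes, so finding them in these windows is not independent support. RefSeq promoter windows (GRCm38.p6, 250 bases before to 50 after the start site) were found for all 10 genes and searched on both strands. The full element, ERSE, reads CCAAT, any 9 bases, then CCACG, and so always overlaps matches to the CCAAT box and to CCACG alone. The shorter ERSE-II reads ATTGG, any 1 base, then CCACG. Each line runs 5′ to 3′ on the gene's own strand, and capitals mark the 5-base ends of the element, which read CGTGG and ATTGG where it lies on the opposite strand.
Hspa5, chr2:34772020-34772048, forward strand: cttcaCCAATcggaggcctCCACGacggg
Hsp90b1, chr10:86705528-86705661, reverse strand, holding 2 elements: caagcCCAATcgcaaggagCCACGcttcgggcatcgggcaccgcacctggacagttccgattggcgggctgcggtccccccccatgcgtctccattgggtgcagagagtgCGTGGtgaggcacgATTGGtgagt
Calr, chr8:84847070-84847098, reverse strand: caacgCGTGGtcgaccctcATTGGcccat
Pdia6, chr12:17266486-17266514, forward strand: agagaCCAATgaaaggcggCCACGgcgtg
Dnajc3, chr14:118937822-118937850, forward strand: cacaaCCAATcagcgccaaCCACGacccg
Herpud1, chr8:94386372-94386392, forward strand, an ERSE-II: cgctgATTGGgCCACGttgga
An ERSE was found in 5 of the 10 windows, against 39 of all 32851 promoter windows (0.119%), and an ERSE-II in 1, against 12 of all windows (0.0365%). The Hspa5 element began 65 bases before the start site, in an annotated Hspa5 exon of GENCODE M21, whose gene starts further upstream. Those of Hsp90b1, Calr, Pdia6 and Dnajc3 lay outside every annotated gene, and that of Herpud1 lay in an intron of the antisense gene Gm15890. The core of the other XBP1 motif, the UPRE core TGACGTG, was matched once in Hspa5 and is held by 2.01% of all windows. A CCAAT box alone was matched in 9 of the 10 windows, but 37.4% of all windows hold one, and CCACG likewise in 9, against 32.8%. The windows of Pdia4, Dnajb9 and Sdf2l1 held neither full element, and that of Xbp1 matched none of the 5 motifs. A match is a description of these letters, not a measured binding site.

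**Figure D1:**
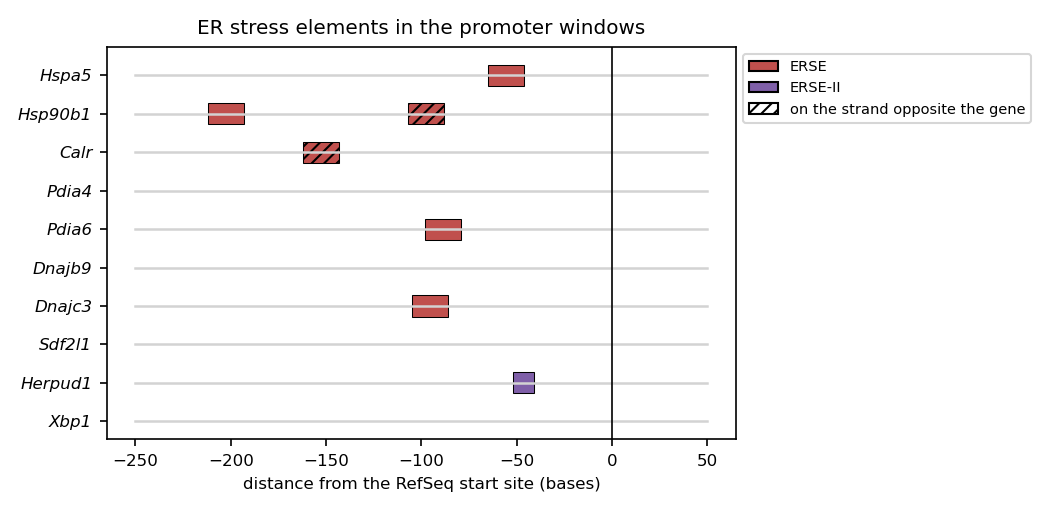
Positions of ERSE and ERSE-II matches in the promoter windows of the 10 genes, as distance from the RefSeq start site in bases; hatching marks a match on the strand opposite the gene. The matches of Hspa5, Pdia6, Dnajc3 and Herpud1 and the nearer of the pair in Hsp90b1 begin between -107 and -52 bases from the start, while Pdia4, Dnajb9, Sdf2l1 and Xbp1 have none.

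Each library held 5.30 to 6.74 Gb of aligned bases, as derived from the deposited coverage and FPKM, and 12442 to 13636 genes at 1 TPM or more. TPM, the share of a library's transcripts scaled to a sum of 1000000, corrects for transcript length, so levels can be compared between genes. Myc itself ranged from 89.2 to 554 TPM in control livers and from 25.6 to 356 TPM in Myc-labelled livers. Since it did not follow the label (log2 difference -0.45 ± 0.95 SE), the libraries are called Myc-labelled and each direction rests on the label. Whether a transgene would be counted under Myc is not known, and Myc in endothelial cells alone was not measured here. Whole liver was labelled and the hepatocyte marker Alb was abundant in all 8 libraries. In bulk tissue, a change in the number of cells of a type and a change in RNA per cell cannot be told apart. Myc-labelled replicate 4 stood apart from the other libraries for the ER genes. It held the highest of the 8 values for 8 of the 10 members, against 1884 of the 13055 genes tested (14.4%), a count made after the values were seen. The differences of the members and the medians of gene lists are therefore given with and without that library.

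The members spanned an abundant to a moderate level. Calr had the highest mean over the 8 libraries at 613 TPM, above 98.5% of the genes tested, followed by Herpud1 at 456, Hsp90b1 at 373, Hspa5 at 351 and Xbp1 at 213 TPM. Pdia6 (168), Pdia4 (120), Dnajc3 (74.1), Sdf2l1 (40.7) and Dnajb9 (29.5 TPM) came after them, and Dnajb9 still lay above 76.8% of the genes tested. The chaperones and isomerases that fold client proteins thus stood above the cochaperones that assist them. Among neighbours in this order, only Pdia6 over Pdia4 and Dnajc3 over Sdf2l1 held in all 8 libraries. Hsp90b1 exceeded Hspa5 in 5 of 8 libraries, and so did Xbp1 over Pdia6, so these neighbours did not differ beyond their spread. The other neighbours kept their order in 6 or 7 libraries.

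**Figure D2:**
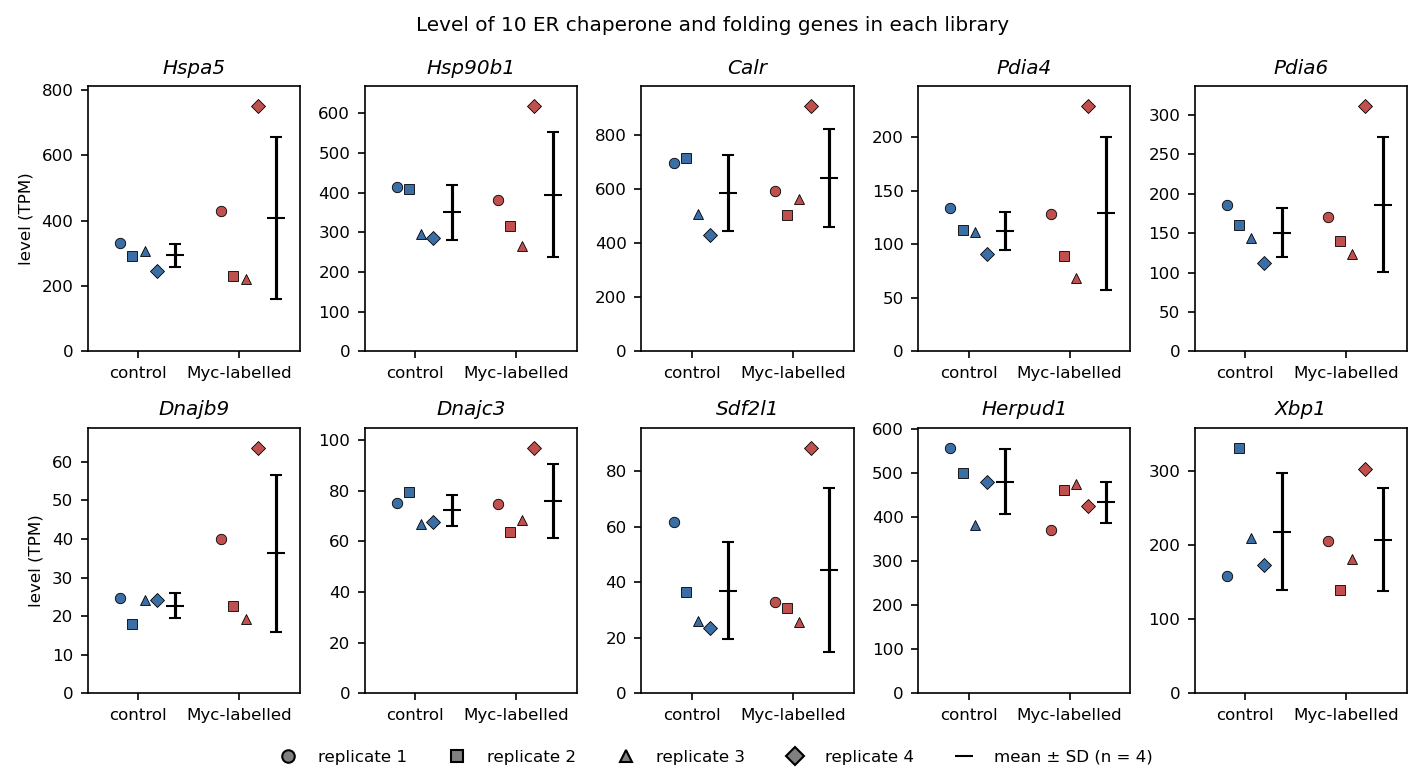
Level in TPM (vertical axes, from 0, scaled per gene) of each gene in the 4 control and 4 Myc-labelled libraries; points are libraries, with a symbol per replicate number, and bars are the mean ± SD (n = 4). Myc-labelled replicate 4 is the highest point for every gene but Herpud1 and Xbp1, as for Hspa5 at 751 TPM against 222 to 428 TPM in the other 7 libraries.

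Hspa5 had a larger SD among the Myc-labelled livers than among the controls, a difference that was not tested. Hspa5 (ENSMUSG00000026864.13, chromosome 2, 34771970 to 34777547, forward strand, mm10) measured 331, 291, 307 and 245 TPM in control replicates 1 to 4 and 428, 231, 222 and 751 TPM in Myc-labelled replicates 1 to 4. The Myc-labelled values lay on both sides of the narrow control range, with replicates 2 and 3 below it and 1 and 4 above. The group means were 293 ± 36.4 and 408 ± 248 TPM (SD, n = 4), a log2 difference of 0.30 ± 0.35 (SE; 95% interval -0.48 to 1.07), and without Myc-labelled replicate 4 the difference was -0.06.

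Dnajb9 (ERdj4), a J-domain cochaperone that recruits BiP to IRE1 and to misfolded clients, had the largest difference of the 10. This gene (ENSMUSG00000014905.4, chromosome 12, 44205559 to 44210326, reverse strand) measured 24.8, 17.9, 24.2 and 24.1 TPM in control livers and 39.9, 22.5, 19.2 and 63.7 TPM in Myc-labelled livers. Myc-labelled replicates 1 and 4 lay above every control, and replicates 2 and 3 lay inside the control range. The means were 22.7 ± 3.25 and 36.3 ± 20.4 TPM and the log2 difference 0.51 ± 0.33 (95% interval -0.22 to 1.24). It kept its sign without Myc-labelled replicate 4, at 0.19, and alone among the members did so on the higher side. Without Myc-labelled replicate 3 it was 0.75 ± 0.30, with an unadjusted limma p of 0.033 and an adjusted p of 0.896. Only in this fit, of all those run, did a member have an unadjusted p under 0.05. The median difference of all genes tested also rose in it, to 0.12 from 0.04 with all 8 libraries.

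Dnajc3 (p58IPK), a cochaperone of BiP that is also known to restrain PERK, varied least among the cochaperones. The gene (ENSMUSG00000022136.8, chromosome 14, 118937976 to 118981697, forward strand) stood at 75, 79.6, 66.8 and 67.5 TPM in control livers and 74.9, 63.9, 68.3 and 97.0 TPM in Myc-labelled livers. Only the last of these left the range of 63.9 to 79.6 TPM that held the other 7. Its log2 difference of 0.06 ± 0.18 had the narrowest interval of the 10 genes, -0.33 to 0.45, and was -0.06 without Myc-labelled replicate 4.

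Sdf2l1, which works with BiP-bound J-domain proteins to keep clients soluble, was the most variable member. Its levels (ENSMUSG00000022769.9, chromosome 16, 17130138 to 17132383, reverse strand) were 61.7, 36.5, 26.0 and 23.7 TPM in control livers and 32.8, 30.7, 25.6 and 88.5 TPM in Myc-labelled livers. A control held the second highest value, and 3 of the 4 Myc-labelled libraries lay within the control range. The means were 37.0 ± 17.4 and 44.4 ± 29.5 TPM, and the log2 difference was 0.18 ± 0.41, or -0.21 without Myc-labelled replicate 4.

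The abundant luminal chaperones Hsp90b1 and Calr had similar profiles. Hsp90b1 (ENSMUSG00000020048.13, chromosome 10, 86690209 to 86705509, reverse strand), which folds integrins and Toll-like receptors, measured 413, 408, 295 and 286 TPM in the controls. In the Myc-labelled libraries it measured 380, 315, 265 and 619 TPM. Control replicates 1 and 2 were high and 3 and 4 low, and the first 3 Myc-labelled libraries reached from inside that range to just below it. The log2 difference was 0.12 ± 0.27 (95% interval -0.47 to 0.70), and -0.12 without Myc-labelled replicate 4. The genes 1810014B01Rik, on the opposite strand, and Gm15344, on the same strand, overlap Hsp90b1 but stood at no more than 6.08 TPM.

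Calr, the calcium-binding lectin that folds glycoproteins with Pdia3, kept the same division among the controls. Calr (ENSMUSG00000003814.8, chromosome 8, 84841850 to 84846934, reverse strand) measured 693, 712, 508 and 428 TPM in control livers and 591, 503, 561 and 907 TPM in Myc-labelled livers. The first 3 Myc-labelled values fell inside the control range. The means were 585 ± 140 and 640 ± 181 TPM and the log2 difference 0.12 ± 0.24 (95% interval -0.41 to 0.66). It was -0.06 without Myc-labelled replicate 4 and -0.02 without control replicate 4.

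The disulfide isomerases Pdia4 and Pdia6 followed Hspa5 and Hsp90b1 closely. Pdia4 (ENSMUSG00000025823.9, chromosome 6, 47796141 to 47813430, reverse strand), a larger isomerase with an additional thioredoxin-like domain, measured 133, 114, 111 and 90.6 TPM in control livers and 128, 88.9, 68.1 and 229 TPM in Myc-labelled livers. Both the highest and the 2 lowest of its values were Myc-labelled. The log2 difference was 0.06 ± 0.33 (95% interval -0.66 to 0.77), and -0.27 without Myc-labelled replicate 4. Pdia6 (ENSMUSG00000020571.12, chromosome 12, 17266545 to 17284770, forward strand), which also tempers IRE1 and PERK signalling, measured 186, 160, 144 and 112 TPM in control livers and 170, 140, 124 and 312 TPM in Myc-labelled livers. Apart from the last value the groups covered the same range. The log2 difference was 0.23 ± 0.28, and -0.04 without Myc-labelled replicate 4. The overlapping gene Atp6v1c2 on the opposite strand was listed at 0 in all 8 libraries.

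Herpud1 and Xbp1 departed from the chaperones. Herpud1 (ENSMUSG00000031770.16, chromosome 8, 94386438 to 94395377, forward strand) encodes a membrane protein of ER-associated degradation, which sends misfolded proteins back to the cytosol. It measured 557, 501, 381 and 480 TPM in control livers and 372, 461, 476 and 424 TPM in Myc-labelled livers. The highest value was a control, and Myc-labelled replicate 4 lay inside the range of the other libraries. The means were 480 ± 73.6 and 433 ± 46.3 TPM, with a log2 difference of -0.14 ± 0.18 (95% interval -0.54 to 0.26) that was -0.13 without Myc-labelled replicate 4. Leaving out control replicate 1 gave -0.064, control replicate 3 -0.25 and Myc-labelled replicate 1 -0.069. Its antisense gene Gm15890 stood at 0.261 to 1.47 TPM. The sources used here give no read strand, so reads of the overlapping opposite-strand genes cannot be told apart.

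Xbp1 (ENSMUSG00000020484.19, chromosome 11, 5520659 to 5525893, forward strand) encodes the transcription factor made active when IRE1 splices its mRNA. A gene-level TPM does not separate its spliced from its unspliced form. It measured 158, 331, 210 and 173 TPM in control livers and 206, 139, 182 and 302 TPM in Myc-labelled livers. Control replicate 2 and Myc-labelled replicate 4 were high, and the groups overlapped over most of their range. The log2 difference was -0.07 ± 0.28 (95% interval -0.69 to 0.56). It became -0.27 without Myc-labelled replicate 4, 0.15 without control replicate 2 and 0.10 without Myc-labelled replicate 2.

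No member passed the test for a difference between the groups. With limma, 0 of the 10 reached an adjusted p of 0.05, against 0 of the 13055 genes tested (0%), and each member had an adjusted p of 0.9998. At an unadjusted p under 0.05 the count was 0 members against 243 genes (1.86%), the smallest member p being 0.154 for Dnajb9. The groups of 4 values overlapped for all 10 members, whereas they did not for 164 genes (1.26%). Exact two-sided permutation p-values ran from 0.343 for Dnajb9 and Herpud1 to 0.886 for Pdia4, where the smallest p that 70 assignments allow is 0.0286. With all 8 libraries the difference was above 0 for 8 of 10 members, with a median of 0.12, against 58.0% and 0.04 for all genes tested. Without Myc-labelled replicate 4 it was above 0 for 1 of 10, with a median of -0.09, while the median of all genes was 0.03. Leaving out 1 library could turn the sign for 8 of the 10 members: Myc-labelled replicate 4 for 7 of them, control replicate 4 also for Calr and Pdia4 (-0.04), and control replicate 2 or Myc-labelled replicate 2 for Xbp1. The intervals still allow differences of more than 1 log2 unit for Hspa5, Dnajb9 and Sdf2l1.

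**Figure D3:**
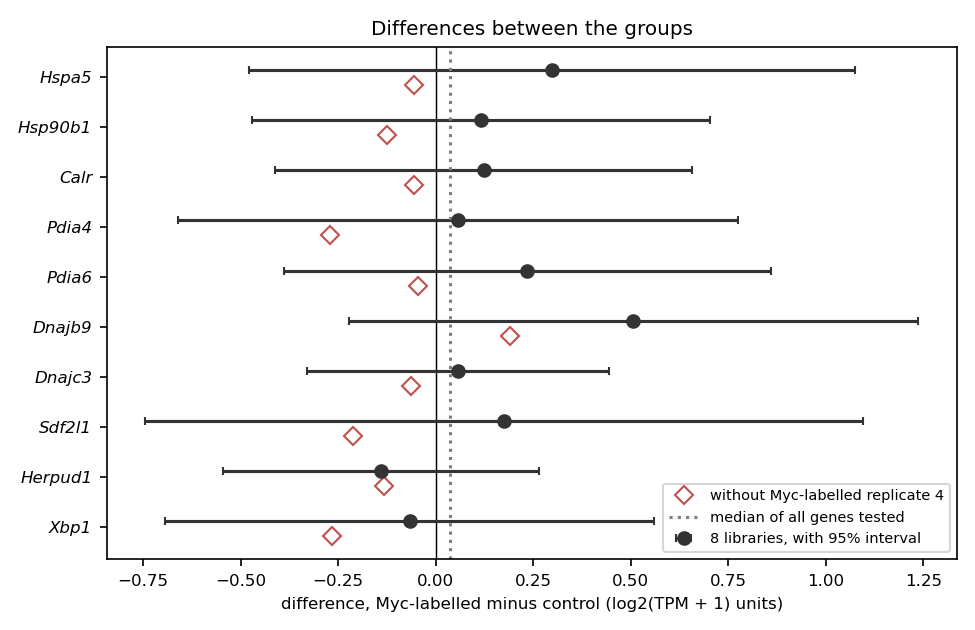
Difference between Myc-labelled and control libraries for each gene, in log2(TPM + 1) units on the horizontal axis; filled points with 95% intervals use all 8 libraries, open diamonds leave out Myc-labelled replicate 4, and the dotted line is the median of all genes tested. Every interval crosses 0, and the open diamonds of all genes but Dnajb9 lie below 0.

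Most of the members moved together from liver to liver. Over the 8 libraries the 45 pairs of members had a median Pearson r of 0.78 in log2(TPM + 1), and 38 pairs were above 0. An r of at least 0.9 was reached by 13 pairs (28.9%), against 0.533% of all pairs of tested genes, whose median r was 0.19. Centring each group on its own mean left the median at 0.79. Without Myc-labelled replicate 4 the median was 0.51 against 0.23 for all gene pairs, and 0 of 45 pairs reached 0.9 against 1.17% of all gene pairs. Of the 38 pairs above 0 with all libraries, 35 were above 0 without it; the 3 that were not (Calr with Dnajb9, and Xbp1 with Dnajb9 and Sdf2l1) were matched in number by 3 that turned positive, all with Herpud1. The values of a pair come from the same libraries and share their depth and cell make-up. The 10 genes were chosen with earlier results of these data known, so the p-values of pairs describe these libraries and are not independent support. By exact permutation 24 of the 45 pairs passed an adjusted p of 0.05 over the 45 pairs with Pearson's r, and 12 with Spearman's rho. Passing pairs were not counted over all pairs of tested genes, nor without Myc-labelled replicate 4, so these counts have no background to be read against.

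Hspa5 and Pdia4 moved together with and without their outer libraries. Their r was 0.954 (exact permutation p = 0.000248, adjusted 0.00372) and rho 0.952 (p = 0.00114, adjusted 0.0167), and r was 0.945 without Myc-labelled replicates 1 and 4, the libraries farthest from the Hspa5 median. Hsp90b1 and Pdia6 had the highest r, 0.960 (exact permutation p = 0.000694, adjusted 0.00767), with rho 0.929 (p = 0.00223, adjusted 0.0167), and an r of 0.878 without Myc-labelled replicates 3 and 4. For Hspa5 and Dnajb9 the r was 0.929 (exact permutation p = 0.00427, adjusted 0.0137) and rho 0.857 (p = 0.0107, adjusted 0.0402). This relation rested on Myc-labelled replicates 1 and 4, without which r was 0.315. Leaving out the 2 outer libraries lowered r in 35 of the 45 pairs.

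Within the set, Hsp90b1 and Pdia6 stood at the centre and Herpud1 stood outside. The median r with the other 9 members was 0.91 for both Hsp90b1 and Pdia6, 0.89 for Hspa5, 0.87 for Dnajc3 and Pdia4, 0.85 for Sdf2l1, 0.78 for Calr, 0.72 for Dnajb9 and 0.56 for Xbp1. Herpud1 had a median of -0.13, with its lowest r, -0.49, against Dnajb9 (exact permutation p = 0.214, adjusted 0.275; rho -0.476, p = 0.243, adjusted 0.377). Without Myc-labelled replicate 4, Hsp90b1 (0.81) and Pdia6 (0.76) still had the highest medians, and Dnajb9 dropped to 0.09, near Herpud1 at 0.05. Set beside the promoter matches, the members that hold an ERSE had medians of 0.78 (Calr) to 0.91 (Hsp90b1 and Pdia6). Of those whose windows held neither element, Pdia4 (0.87) and Sdf2l1 (0.85) lay within that range, and Dnajb9 (0.72) and Xbp1 (0.56) lay below it. Herpud1, at -0.13, holds the only ERSE-II of the set. A link between element and co-variation was not tested.

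**Figure D4:**
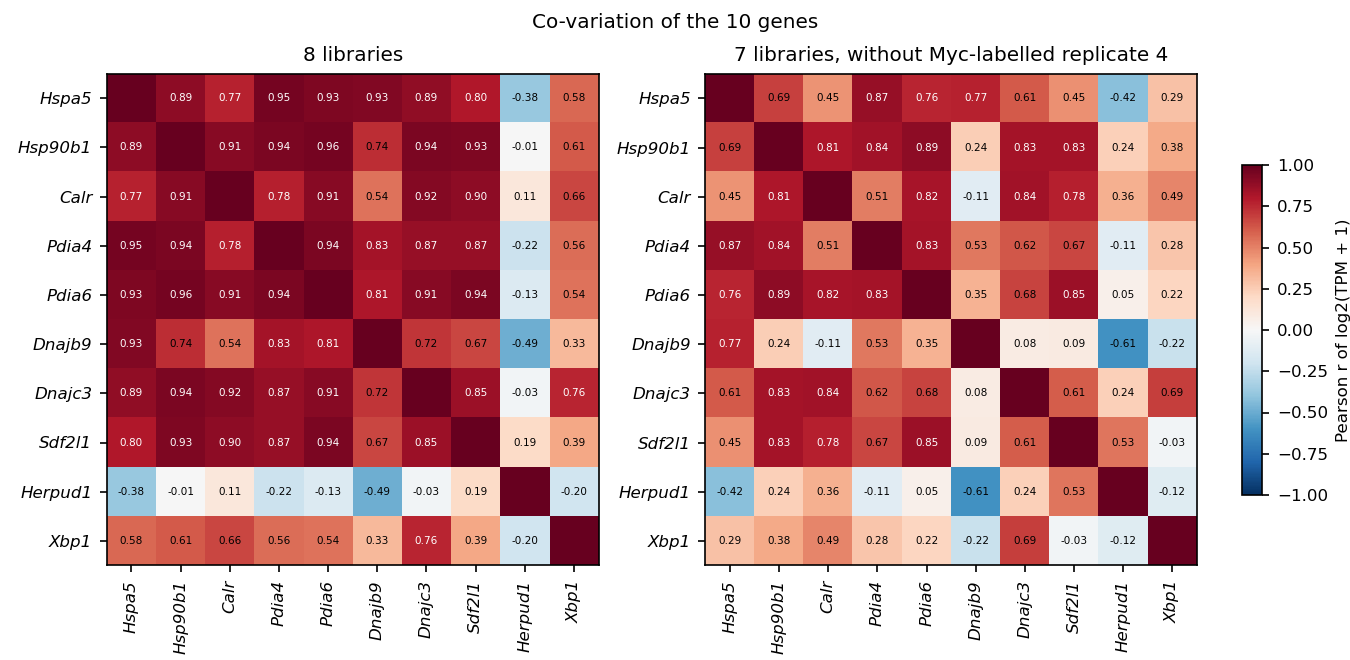
Pearson r of log2(TPM + 1) for each pair of the 10 genes over 8 libraries (left) and over the 7 without Myc-labelled replicate 4 (right); red is positive and blue negative. The block from Hspa5 to Sdf2l1 is red in the left panel and paler in the right. There Dnajb9 lies near 0 with Calr (-0.11), Dnajc3 (0.08) and Sdf2l1 (0.09). The row of Herpud1 is pale or blue in the left panel.

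The mean standardised profile of the 10 genes put the libraries in order. It was 0.38, 0.29, -0.48 and -0.67 SD units in control replicates 1 to 4 and 0.08, -0.61, -0.67 and 1.67 in Myc-labelled replicates 1 to 4, so both groups held high and low libraries. Among 8866 genes whose mean reached 5 TPM, the 10 most like this profile by r over the 8 libraries were Manf (0.985), Trabd (0.963), Llph-ps2 (0.962; a pseudogene, which can share reads with its parent gene), Dnajb11 (0.958), Pdia3 (0.952), Mettl1, Selenos and Dpagt1 (0.939 each), Clpp (0.938) and Edem2 (0.928). Manf, a secreted ER stress protein, measured 62.2, 68.5, 46.5 and 37.2 TPM in control livers and 56.9, 32.0, 34.7 and 159 TPM in Myc-labelled livers, and its r was 0.947 without Myc-labelled replicate 4. Over the 10 genes r then ran from 0.746 for Edem2 to 0.97 for Llph-ps2, with Selenos at 0.789 and Dpagt1 at 0.795. Dnajb11 (ERdj3), the BiP cochaperone, ran from 58.9 to 80.2 TPM in the other 7 libraries and stood at 103 TPM in Myc-labelled replicate 4. The 3 least like genes were Ndrg3 (-0.934), the circadian clock gene Per3 (-0.924) and Tex261 (-0.909). Without Myc-labelled replicate 4 their r was -0.754, -0.734 and -0.677. Per3 measured 4.01, 7.26, 9.48 and 12.1 TPM in control livers and 4.53, 6.87, 7.71 and 0.911 TPM in Myc-labelled livers, the lowest of these in replicate 4. These values describe likeness over 8 libraries only.

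A further 12 tested genes outside the set held an ERSE in their window. Their median r with the profile was 0.63, against 0.10 for the 9497 tested genes with a promoter entry. These medians were 0.27 and 0.14 without Myc-labelled replicate 4. Among them, the ER protein gene Creld2 (r = 0.904, or 0.629 without Myc-labelled replicate 4) ran from 15.3 to 30.6 TPM in the other 7 libraries. It stood at 68.8 TPM in Myc-labelled replicate 4. Canx, the membrane-bound relative of Calr, had an r of 0.726, and Syvn1, the ubiquitin ligase of ER-associated degradation, 0.621. These became 0.400 and -0.28 without Myc-labelled replicate 4. Hnrnpa3 (0.831), Derl3 (0.709), Alg12 (0.698), Xlr3b (0.643), Acacb (0.511), Xlr3a (0.463), Spats2l (0.118) and Pan2 (-0.092) also held an ERSE. Without that library they ran from -0.012 for Spats2l to 0.786 for Hnrnpa3, which is in none of the lists. At the other end Acnat2 had an r of -0.569, or 0.05 without that library. Tested genes outside the set with an ERSE-II ran from an r of 0.958 for Dnajb11 to -0.316 for Nucb1, or 0.884 and -0.477 without Myc-labelled replicate 4. Between them lay Krtcap2 (0.852), Lrif1 (0.492), Rcl1 (0.475), Rbm39 (0.402), Lgalsl (0.114) and Gm46430 (-0.261).

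Many genes of the wider ER folding and secretion machinery were also highest in Myc-labelled replicate 4, and limma called 0 of them between the groups. Of 111 tested ER pathway genes outside the set, in 6 lists, 84 had a difference above 0 (58.0% of all genes tested did), 67 were highest in that library, where 14.4% of all genes tested were, and 3 had an unadjusted p under 0.05, as 1.86% of all genes did. Their median log2 difference was 0.11, and that of all genes tested 0.04. Without Myc-labelled replicate 4, 55 of the 110 that were tested were above 0, against 56.4% of all genes, with a median of 0.00027. Among the 19 other ER chaperones and cochaperones, 12 differences were above 0 with a median of 0.11 (-0.002 without Myc-labelled replicate 4), and 13 genes were highest in that library. The proline isomerase gene Fkbp11 measured 16.2 ± 5.68 TPM in control livers and 24.2 ± 10.8 TPM in Myc-labelled livers, and Fkbp14 measured 4.36 ± 1.13 and 5.83 ± 1.13 TPM. Their log2 differences were 0.52 and 0.36, or 0.29 and 0.30 without Myc-labelled replicate 4. Fkbp2, Ppib and Canx also overlapped between the groups. Of 17 genes of the Sec translocon and signal peptide processing, which bring new chains into the ER, 16 were above 0 with a median of 0.15 (-0.01 without Myc-labelled replicate 4), and 13 were highest in it. Sec61g, a channel subunit, measured 23.9 ± 8.73 and 34.9 ± 12.4 TPM (log2 difference 0.53, or 0.36 without that library). Tram1, Ssr1, Ssr3 and Ssr4 had differences of 0.10 to 0.33, which became -0.04 to 0.10 without it.

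The disulfide isomerases and oxidases, 16 in number, held 12 differences above 0 with a median of 0.15 (0.06 without Myc-labelled replicate 4). The most abundant, P4hb, measured 865 ± 212 and 1015 ± 140 TPM, and Pdia3 239 ± 51.8 and 290 ± 96.2 TPM. The oxidase gene Ero1l, which reoxidises isomerases, measured 9.01 ± 1.24 and 12.4 ± 4.57 TPM. When Myc-labelled replicate 4 was left out, the log2 difference went from 0.25 to 0.20 for P4hb, from 0.25 to 0.05 for Pdia3 and from 0.37 to 0.17 for Ero1l. Others lay lower in the Myc-labelled libraries, as Qsox1 at 767 ± 202 and 594 ± 106 TPM and Pdia5 at 78.5 ± 14.5 and 62.9 ± 21.3 TPM. Neither passed (limma unadjusted p = 0.136 and 0.178). Without that library their log2 differences went from -0.35 to -0.29 and from -0.36 to -0.55. The unadjusted limma p-values were then 0.268 for Qsox1 and 0.0426 for Pdia5, with an adjusted p of 0.9999 for both. For N-glycosylation and glycan quality control, 13 of 17 differences were above 0 with a median of 0.08 (-0.07 without Myc-labelled replicate 4). The oligosaccharyltransferase genes Rpn1 (0.22 ± 0.21), Ddost (0.18 ± 0.22), Ostc (0.28 ± 0.36) and Dad1 (0.04 ± 0.19) and the cargo receptor gene Mcfd2 (-0.14 ± 0.25) all had log2 differences within about 1 SE of 0. These lay between -0.24 for Mcfd2 and 0.06 for Rpn1 without Myc-labelled replicate 4.

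ER-associated degradation, the list nearest to Herpud1, had 19 of 24 differences above 0 with a median of 0.09 (-0.02 without Myc-labelled replicate 4). Syvn1 measured 22.5, 27.3, 26.6 and 24.9 TPM in control livers and 31.2, 26.2, 33.9 and 47.1 TPM in Myc-labelled livers. Of the Myc-labelled values, 3 lay above every control (limma unadjusted p = 0.0528, or 0.171 without Myc-labelled replicate 4). The lectin receptor gene Os9 had a log2 difference of -0.13 ± 0.17 and Aup1 -0.06 ± 0.18, while the mannosidase gene Edem3 and the ubiquitin-conjugating enzyme gene Ube2g2 had 0.28 ± 0.19 and 0.24 ± 0.18, or 0.22 and 0.14 without that library. Among the 18 unfolded protein response sensors and transcription factors, 12 differences were above 0 with a median of 0.09 (0.01 without Myc-labelled replicate 4), and 3 genes had an unadjusted p under 0.05 (1.86% of all genes did). The groups did not overlap for 2 of them, as for 1.26% of all genes.

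With all 8 libraries, those 3 were the only genes past that level among the 111 tested ER pathway genes outside the set. Mbtps2, the site-2 protease that releases ATF6, measured 3.90, 3.97, 4.16 and 3.65 TPM in control livers and 7.65, 5.24, 5.2 and 5.86 TPM in Myc-labelled livers, with no overlap (limma unadjusted p = 0.0153). Nfyb, a subunit of the factor that binds the CCAAT part of the ERSE, also did not overlap, at 15.6, 12.2, 13.4 and 16.6 TPM against 19.0, 17.7, 18.6 and 24.2 TPM (limma unadjusted p = 0.0225). Ddit3 (CHOP), the transcription factor of the PERK arm, measured 3.99, 7.30, 5.41 and 7.78 TPM against 16.0, 6.71, 7.0 and 23.3 TPM, high in Myc-labelled replicates 1 and 4 as Dnajb9 was (limma unadjusted p = 0.0421). None of the 3 passed the adjusted p of 0.05, and without Myc-labelled replicate 4 their log2 differences were 0.50, 0.34 and 0.55, with unadjusted limma p-values of 0.0309, 0.0739 and 0.108. Atf4 measured 99.6 ± 27.2 and 124 ± 20.2 TPM and the liver-enriched Creb3l3 153 ± 24.0 and 146 ± 50.2 TPM.

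Chaperones of the cytosol and the mitochondria were set beside those of the ER. Of 17 cytosolic heat shock chaperones, 14 differences were above 0 with a median of 0.12, which was 0.11 without Myc-labelled replicate 4, and 5 genes were highest in that library. Dnajb1 alone of the 17 did not overlap between the groups, as was so for 1.26% of all genes tested. It measured 8.05 ± 1.31 and 10.1 ± 0.826 TPM (limma unadjusted p = 0.0936). Hspa8 had a log2 difference of -0.13 ± 0.19, Hsp90aa1 0.27 ± 0.23, Hsp90ab1 0.01 ± 0.20 and their activator Hsf1 0.27 ± 0.17. Those of Hsp90aa1, Hsp90ab1 and Hsf1 were 0.14, -0.06 and 0.19 without that library. Of 8 mitochondrial chaperones 7 were above 0 with a median of 0.09 (0.01 without Myc-labelled replicate 4), with Hspa9 at 0.19 ± 0.21, Hspd1 at 0.04 ± 0.22, Lonp1 at 0.23 ± 0.20, Grpel1 at 0.16 ± 0.17 and Dnaja3 at -0.20 ± 0.16. Without that library Hspa9 was at 0.14, Hspd1 at -0.02 and Dnaja3 at -0.14. The median r with the 10 members was 0.70 for the translocon list, 0.61 for the other ER chaperones, 0.53 for glycosylation, 0.47 for the isomerases and 0.45 for degradation. It was 0.27 for the response regulators, 0.38 for the mitochondrial and 0.17 for the cytosolic chaperones. Without Myc-labelled replicate 4 it was 0.45 for the translocon, 0.38 for the other ER chaperones, 0.32 for glycosylation, 0.30 for the isomerases, 0.29 for degradation and 0.05 for the regulators. The mitochondrial chaperones, at 0.42, then lay above every ER list but the translocon, and the cytosolic chaperones were at -0.04. Among the 500 genes most like the profile, of 8866 ranked, were 11 of 17 ranked translocon genes and 11 of 18 other ER chaperones. The other ER lists held 7 of 23 degradation genes, 6 of 16 glycosylation genes, 5 of 15 isomerases and 2 of 17 response regulators there. Of the mitochondrial chaperones 2 of 8 were among them, and of the cytosolic chaperones 0 of 15. The neutrophil markers, listed for another cell type, held 3 of 5 ranked genes there, S100a8 at rank 17. Their median r with the profile was 0.71, against 0.70 for the other ER chaperones, and became 0.39 and 0.45 without Myc-labelled replicate 4. The median r of the neutrophil markers with the 10 members was 0.56, or 0.23 without it. These differences between lists were not tested.

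**Figure D5:**
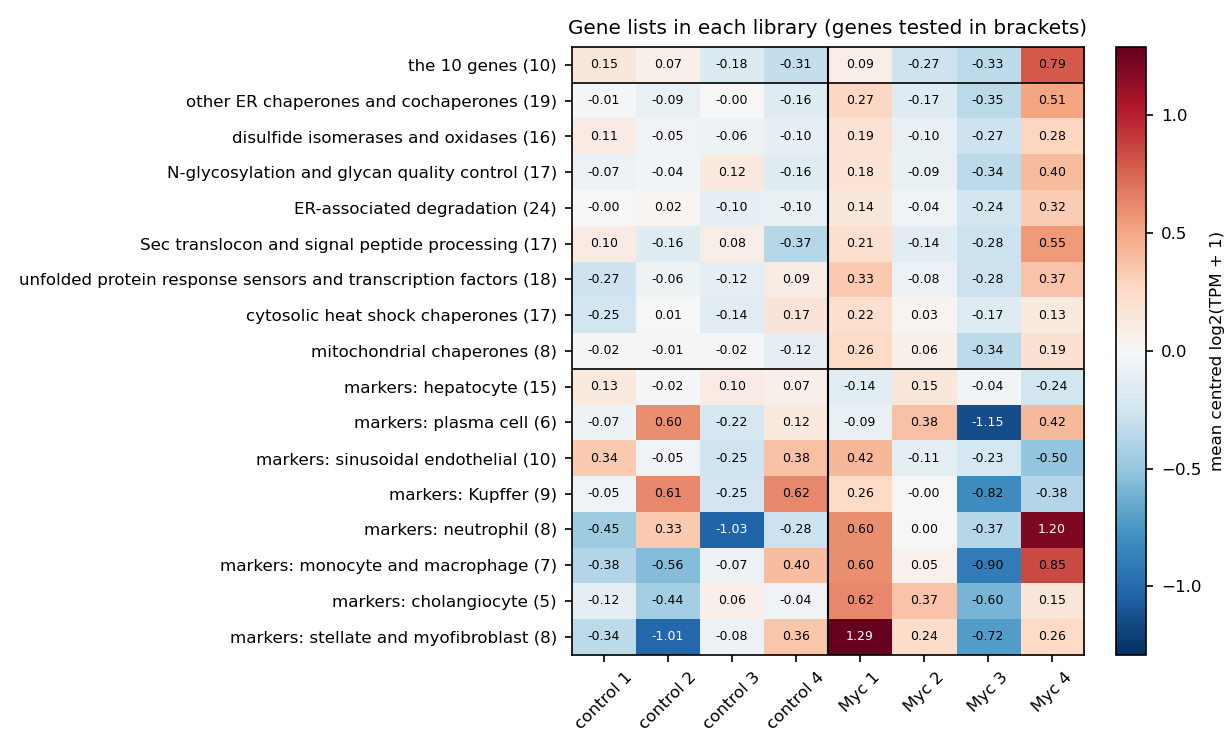
Mean of log2(TPM + 1), centred on each gene's mean over 8 libraries, for the 10 genes, the pathway lists and the cell type marker lists (rows, with the number of genes tested) in each library (columns); red is above and blue below the gene's mean. The 10 genes reach 0.79 in Myc-labelled replicate 4, where the neutrophil markers reach 1.2 and the sinusoidal endothelial markers -0.50.

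Markers of several cell types moved with Myc-labelled replicate 4 as well. Of the 8 neutrophil markers tested, 7 were highest in it, and the 7 other than Lcn2, which hepatocytes also make, summed to 160 TPM there, to 26.8 to 76.0 TPM in the other Myc-labelled libraries and to 14.5 to 70.1 TPM in the controls. All 8 tested markers had a log2 difference above 0, with a median of 0.67. Without Myc-labelled replicate 4, 7 were above 0 with a median of 0.26. The limma fit called 0 of them, and 2 had an unadjusted p under 0.05, as 1.86% of all genes did. Ly6g was at 0 in 5 libraries. With Lcn2 the list summed to 2989 to 6402 TPM in control livers and 3830 to 6653 TPM in Myc-labelled livers. The 7 monocyte and macrophage markers summed to 355 to 608 TPM in control livers and 237 to 1425 TPM in Myc-labelled livers, the highest in replicate 4, where Spp1 gave 939 TPM and 3 of the 7 were highest. Their part in the result was not tested.

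Plasma cells are also rich in ER chaperones. Of 12 plasma cell markers listed, 6 were tested, Tnfrsf17 was at 0 in all 8 libraries, Jchain ran from 0.396 to 3.02 TPM, and Igkc from 2.84 to 64.7 TPM with the highest value in control replicate 2. The list summed to 122 to 177 TPM in control livers and 105 to 217 TPM in Myc-labelled livers, and most of the highest sum was Txndc5 (156 TPM), itself an ER isomerase gene that other cells use. Of 15 hepatocyte markers 0 were highest in Myc-labelled replicate 4, and their sum ran from 112840 to 167850 TPM in control livers and from 103820, in that library, to 146250 TPM in Myc-labelled livers. The 10 sinusoidal endothelial markers summed to 156 to 223 TPM in control livers and 118 to 219 TPM in Myc-labelled livers, with the lowest in replicate 4. The 9 Kupffer cell markers all had differences below 0 and summed to 820 to 1714 and 641 to 1192 TPM. The 7 cholangiocyte markers summed to 17.8 to 26.1 and 14.4 to 41.0 TPM, and the 8 stellate and myofibroblast markers to 25.3 to 102 and 32.8 to 218 TPM, both highest in Myc-labelled replicate 1. That library held the highest value for 35.8% of all genes tested and for 0 of the 10 members.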

How the data were processed

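RNA-seq was made from total RNA of 8 livers with an mRNA library kit, per the labels' protocols. Per the submitters' processing notes, HISAT2 (alignment) and StringTie (quantification) were run on the mm10 build, with no versions stated. TPM, FPKM and coverage (a signal not scaled for depth) were deposited by the authors per gene, per the file headers. Read counts were not used here. Repeated rows of a gene ID (10 to 15 per library) were summed, and 98.3% of IDs matched GENCODE M21. The labels do not say more of how the replicates were kept apart than that there were 4 mice in each group, so p-values measure the spread between these samples.

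The groups were compared two-sided with limma 3.58.1 under R 4.3.3, with a trended and robust variance, on log2(TPM + 1) of the 13055 genes averaging 1 TPM or more. The p-values were adjusted by Benjamini and Hochberg's method, with a threshold of 0.05. This scale understates changes of low genes. Standard errors and 95% intervals come from this fit, and SDs are over 4 libraries. Exact permutation used 70 assignments of libraries for a gene and 40320 pairings for a correlation. Correlations and permutations were computed in Python 3.11.15 (numpy 2.4.6, scipy 1.17.1, pandas 2.3.3), and the fit was tested on simulated data. The rule for named genes took every member, the 3 genes of each pathway list with the smallest unadjusted p and its 2 most abundant, and the 10 most and 3 least like genes; other genes, such as those with an ERSE, were chosen after their values were seen. Aligned bases come from the modal ratio of coverage to FPKM. The members and lists were chosen with earlier results of these data known. Alternatives covered the pseudocount, filter, scaling, FPKM, the variance model, array weights, a block on replicate number and each library left out.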

Additional observations from a re-analysis of the deposited data

Results flagged for a closer look

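In 2 of the 20 groups of 4 libraries formed by the 10 genes, 1 library lay far from the other 3 by Dixon's test, which chance flags in about 1 in 20 groups. Dnajb9 stood at 17.89 TPM in control replicate 2, below the 24.1 to 24.8 TPM of the other controls, a gap of 0.9 of the group's range. Sdf2l1 stood at 88.46 TPM in Myc-labelled replicate 4, above the 25.6 to 32.8 TPM of the other Myc-labelled libraries, a gap of 0.884 of the range.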

How the results depend on the processing

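No member was called under any of the 18 alternative settings of the group comparison, where the members' adjusted p ran from 0.896 to 1. Over all genes, array weights gave 1 call (Gm43305) in place of 0. Array weights, which gave Myc-labelled replicate 2 a weight of 3.32 and the others 0.42 to 1.62, turned the log2 difference of Pdia4 to -0.017, of Dnajc3 to -0.013 and of Myc to 0.23. The same setting moved Hspa5 from 0.30 to 0.071, Dnajb9 from 0.51 to 0.29, Herpud1 from -0.14 to -0.036 and Xbp1 from -0.07 to -0.31. Leaving out each library in turn gave ranges of -0.057 to 0.53 for Hspa5, -0.12 to 0.28 for Hsp90b1, -0.057 to 0.23 for Calr, -0.27 to 0.31 for Pdia4, -0.045 to 0.40 for Pdia6, -0.065 to 0.13 for Dnajc3, -0.21 to 0.45 for Sdf2l1, 0.19 to 0.75 for Dnajb9, -0.25 to -0.064 for Herpud1, -0.27 to 0.15 for Xbp1 and -0.91 to 0.43 for Myc. For Hspa5, Hsp90b1, Calr, Pdia4, Pdia6, Dnajc3 and Sdf2l1, values below 0 came without Myc-labelled replicate 4 and, for Calr (-0.02) and Pdia4 (-0.04), also without control replicate 4. Xbp1 was above 0 without control replicate 2 or Myc-labelled replicate 2, and Myc without Myc-labelled replicate 3. Dnajb9 and Herpud1 kept their sign in every setting. The median r between members, 0.78 in the main setting, was 0.68 with median-of-ratios scaling and 0.70 with quantile normalization. It was 0.64 with Spearman's rho and 0.51 to 0.87 with a library left out, the lowest without Myc-labelled replicate 4. Median-of-ratios scaling moved the median of all genes from 0.04 to -0.00 and that of the members from 0.12 to 0.08. The replicate block left the median member difference at 0.12, with 0 members called. Libraries of the same number had correlations of -0.06 to 0.13 in their deviations, and those of different numbers -0.21 to 0.22. Not every library correlated best with its own number. So few values cannot decide whether the numbers pair the samples, and the labels do not say. The causes were not tested. With 4 libraries per group and read depth known only as aligned bases, the width of the intervals limits what differences could be seen.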
